A study of Mus musculus with 22 samples.

Results

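Glucose uptake and pyruvate entry were followed in brown adipose tissue (BAT) through the transcripts of 10 genes taken as a fixed list, of 55487 gene identifiers counted: Slc2a1, Slc2a4, Hk1, Hk2, Pfkl, Pkm, Pdk2, Pdk4, Mpc1 and Mpc2. All 10 passed the filter on low counts in both cohorts, among 17869 genes tested without virus and 18899 in the AAV cohort. RNA came from interscapular BAT of C57BL/6 mice, 1 library per mouse, all labelled male. The untreated cohort held 5 wild-type (WT) mice and 5 mice with a global knockout (KO) of Cpeb2, aged 21 to 25 weeks and kept without food for some hours before collection. In the AAV cohort, WT and KO mice received adeno-associated virus of serotype 2/8 in the BAT at 16 weeks, encoding either GFP or flag-tagged PRDM16 from its coding region, and the tissue was collected 9 weeks later, at 25 weeks, which gave 3 libraries for each pair of genotype and virus (WT + AAV-GFP, KO + AAV-GFP, WT + AAV-PRDM16, KO + AAV-PRDM16). The knockout was not limited to BAT, so effects that begin in BAT and effects that reach it from other organs cannot be told apart in these libraries.

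Glucose enters a fat cell through facilitative transporters, GLUT1 (Slc2a1), which sits at the cell surface, and GLUT4 (Slc2a4), which insulin brings there. Hexokinase (Hk1, Hk2) traps the sugar as glucose 6-phosphate, phosphofructokinase (Pfkl, the liver-type subunit) commits it to glycolysis and pyruvate kinase (Pkm) forms pyruvate. The mitochondrial pyruvate carrier, a complex of MPC1 and MPC2, brings pyruvate into the matrix, where pyruvate dehydrogenase turns it into acetyl-CoA unless a pyruvate dehydrogenase kinase (Pdk2, Pdk4) switches the complex off. BAT is known for a large glucose uptake in the cold. CPEB2, a protein that binds cytoplasmic polyadenylation elements in the 3' untranslated region (UTR) of mRNAs and acts on their translation, is not measured by these libraries beyond its transcript, and neither are protein levels or glucose flux.

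Because CPEB2 acts through such elements, the 3' UTR of each gene was searched for the hexamer TTTTAT (with U for T in the mRNA), on the transcript strand only, in the GENCODE M21 transcript with the longest 3' UTR. At least 1 copy was found in 4 of the 10 genes, beside 51.5% of all 21004 genes with an annotated 3' UTR. Slc2a1 held 3 copies in 1537 bases, Pdk4 3 in 2098 bases, Mpc1 2 in 499 bases and Hk2 1 in 2285 bases. No copy was in the window searched for Slc2a4, Hk1, Pfkl, Pkm, Pdk2 or Mpc2. Long UTRs hold the hexamer more often: of genes with a 3' UTR within 80% to 120% of the same length, it was present in 68.4% for the length of Slc2a1, 79.2% for Pdk4, 81.2% for Hk2, 33.3% for Mpc1 and 20.7% for the 275 bases of Mpc2. These windows are shown to place the hexamer in the members that have it, on GRCm38, 5' to 3' on the transcript strand, with the hexamer in capitals. The Slc2a1 windows lie at chr4:119136663-119136688 and chr4:119136702-119136727 on the plus strand, the Hk2 window at chr6:82725915-82725940 on the minus strand, the Pdk4 windows at chr6:5484838-5484863 and chr6:5483365-5483390 on the minus strand, and the Mpc1 windows at chr17:8297398-8297423 and chr17:8297475-8297500 on the plus strand.
Slc2a1 copy 1: aagcagcaggTTTTATaattttttta
Slc2a1 copy 3: tattttttttTTTTATcagccactct
Hk2: cgactagcctTTTTATacgagttatt
Pdk4 copy 1: tcatgcagctTTTTATgtttgcactc
Pdk4 copy 2: attgtgataaTTTTATaataaatatt
Mpc1 copy 1: tgaatgatggTTTTATctatagcaat
Mpc1 copy 2: gggaacaaaaTTTTATaactacaagc
Copy 2 of Pdk4 ends 24 bases before the annotated end of the transcript, and copy 1 of Slc2a1 starts 227 bases after the stop codon. A match is a run of letters and not a shown binding site.

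Some libraries did not follow their labels, which bears on every untreated comparison. Total counts per library were 55320927 to 162721202 (untreated) and 61636889 to 143005309 (AAV). Cpeb2 separated the genotypes in the AAV cohort, with 4.33 to 5.55 CPM (counts scaled to library size by TMM) in KO and 10.46 to 13.96 in WT libraries. In the untreated cohort, KO replicate 1 had 11.65 CPM of Cpeb2, within the WT range of 7.69 to 14.3, so the text writes of libraries labelled KO there, which otherwise had 2.10 to 5.78. Transcripts of 4 Y-linked genes, present at a summed 153.8 to 193.8 CPM in the 12 AAV libraries, summed to between 0.206 and 1.17 CPM in WT replicates 3 and 5 and KO replicates 1, 3, 4 and 5, against 77.0 to 192.8 in the other untreated libraries. Summed skeletal muscle markers (20 genes, none at 0 throughout either untreated group) were above 1000 CPM in WT replicate 3 (4307 CPM) and KO replicates 1, 2 and 5 (7929, 8869 and 1437 CPM), and between 54.6 and 255.9 in the other untreated libraries. In the AAV libraries the same sum was 30.6 to 161.5 CPM, with 5 of the 20 at 0 in every WT + AAV-GFP library. The 16 brown adipocyte markers summed to 8834 to 22510 CPM over the 22 libraries, none of them at 0 throughout a group. In bulk tissue, a change in the number of cells of a type and a change in RNA per cell cannot be told apart.

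**Figure D1:**
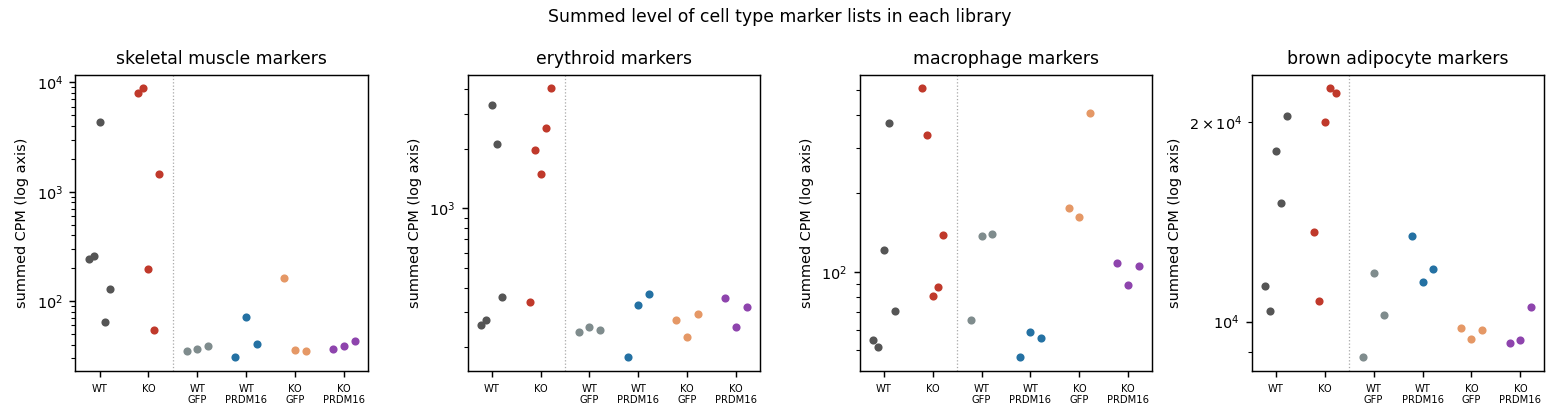
Summed CPM (log axis) of 4 marker lists in each of the 22 libraries (points), by group, with the untreated cohort left of the dotted line. Skeletal muscle sums spread from 54.6 to 8869 CPM in the untreated cohort and from 30.6 to 161.5 CPM in the AAV cohort, and macrophage sums were highest in KO replicate 1 (507.9 CPM) and KO + AAV-GFP replicate 3 (406.8 CPM).

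The 10 transcripts differed widely in level within the tissue. On a scale of CPM per kilobase of merged exons, WT + AAV-GFP BAT (n = 3) had 715 ± 138 (SD) of Pdk4, 328 ± 29.9 of Pkm and 160 ± 25.2 of Mpc1, without overlap between their libraries. Pfkl (82.7 ± 8.77) and Pdk2 (80.2 ± 5.74) came next and overlapped, and then Slc2a4 (63.1 ± 7.09) and Hk2 (52.2 ± 18.4), which overlapped too. Mpc2 at 18.8 ± 2.52, Hk1 at 5.07 ± 0.836 and Slc2a1 at 1.23 ± 0.131 were lowest. So GLUT4, hexokinase 2 and PDK4 had the higher transcript level of their pairs. Pdk4, Pkm and Mpc1 were the 3 highest and Mpc2, Hk1 and Slc2a1 the 3 lowest in each of the 6 groups on this scale. The places of Mpc2 and Pkm depend on the gene model, since merged exons include retained introns. Per kilobase of the longest protein-coding transcript, Mpc2 was at 135 ± 18.0 in the same libraries, between Pfkl (148 ± 15.7) and Pdk2 (113 ± 8.09), and Pkm at 674 ± 61.6 overlapped Pdk4 at 720 ± 140. All values that follow are CPM, compared within 1 gene and not between genes.

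**Figure D2:**
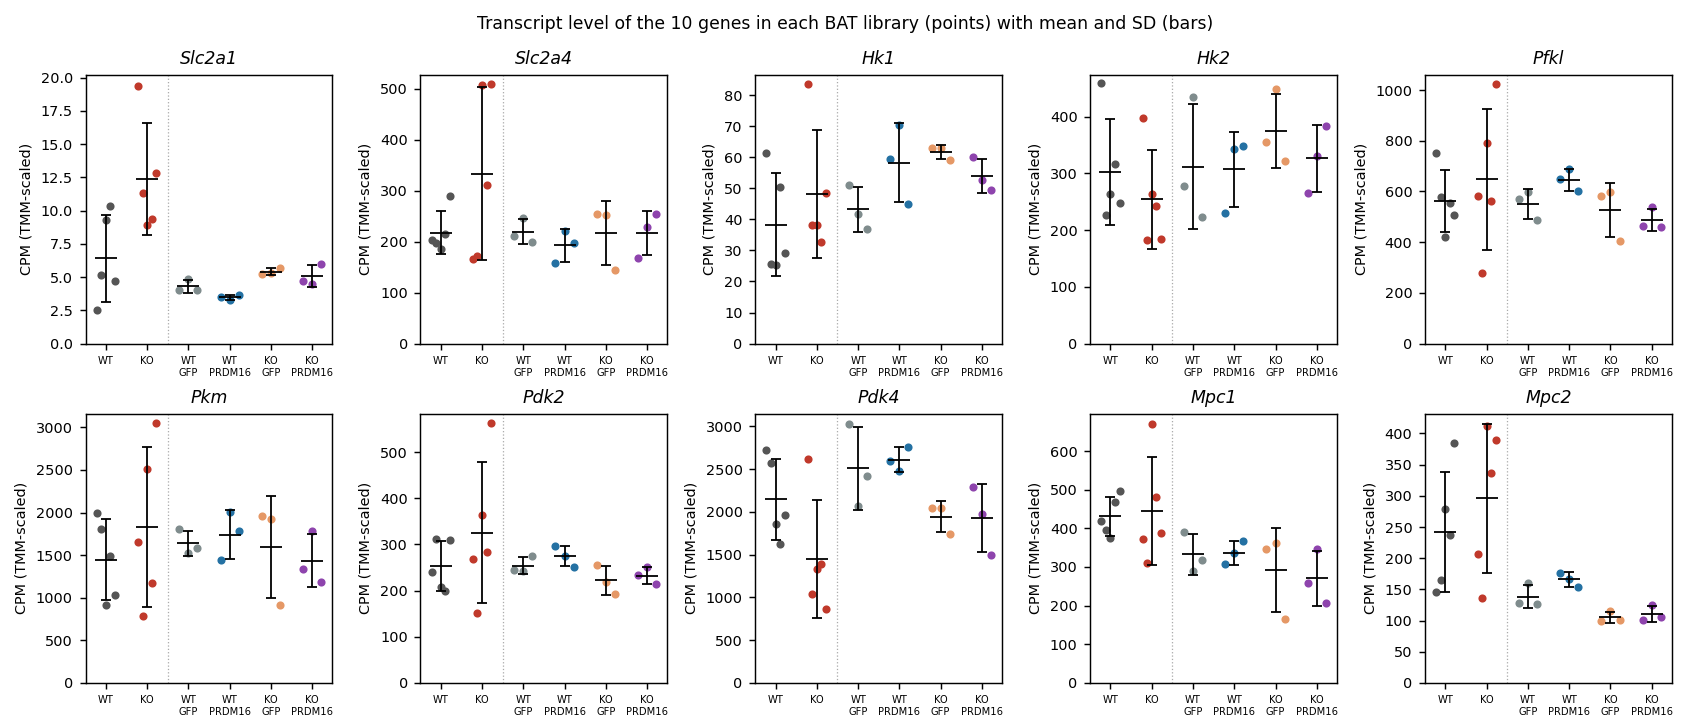
CPM (TMM-scaled, linear axis from 0) of each of the 10 genes by group, with 1 point per library and bars for the mean and SD, the untreated cohort left of the dotted line. Mpc2 lay between 99.8 and 124.9 CPM in the 6 KO libraries of the AAV cohort and between 126.9 and 177.0 in the 6 WT libraries, while the untreated groups overlapped for every gene.

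The comparison with the most mice free of label conflicts set the 6 KO against the 6 WT libraries of the AAV cohort, averaged over both viruses. Mpc2, the carrier subunit, fell by 0.49 on the log2 scale (SE 0.086, 0.712-fold, edgeR quasi-likelihood FDR 0.0191), and no other gene of the 10 passed an FDR of 0.05, where 2.18% of all genes tested did. Slc2a1 was the next, at a log2 fold change of 0.44 (FDR 0.0578), and Pdk4 the one after, at -0.41 (FDR 0.0951). With limma-voom 1 of the 10 was called, Mpc2, beside 2.28% of all genes, and with DESeq2 3, Mpc2, Slc2a1 and Pdk4, beside 8.38%. At an unadjusted p under 0.05 there were 5 of the 10 genes, Slc2a1 higher and Mpc2, Pdk4, Pdk2 and Pfkl lower in KO, beside 18.3% of all genes. The median log2 fold change of the 10 was -0.19, beside 0.01 over all genes tested.

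Mpc2 was read at 128.0, 159.4 and 126.9 CPM in WT + AAV-GFP and at 177.0, 166.2 and 154.2 in WT + AAV-PRDM16. It was at 99.8, 115.0 and 100.4 CPM in KO + AAV-GFP and at 100.2, 124.9 and 106.2 in KO + AAV-PRDM16. Every KO library was below every WT library, a separation that 2.71% of all genes showed in this comparison and no other gene of the 10. The difference was -0.39 (SE 0.12, FDR 0.354) under AAV-GFP and -0.59 (SE 0.12, FDR 0.0954) under AAV-PRDM16, and its dependence on the virus was -0.19 (95% confidence interval -0.57 to 0.18, interaction FDR 1.0). The averaged call was lost without KO + AAV-PRDM16 replicate 1 (FDR 0.0655) and without WT + AAV-PRDM16 replicate 1 (FDR 0.0582), with log2 fold changes of -0.46 and -0.47.

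Its partner Mpc1 did not move with it beyond its spread. Mpc1 ranged from 289.7 to 391.1 CPM in the 6 WT libraries and from 166.4 to 363.4 in the 6 KO libraries, and the averaged log2 fold change was -0.25 (SE 0.18, 95% confidence interval -0.66 to 0.15, FDR 0.517). The lowest value, 166.4 CPM, was in KO + AAV-GFP replicate 3. A noncoding gene, 4930506C21Rik, overlaps Mpc1 on the opposite strand, and the sources used here do not state whether the counting used strand.

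Slc2a1, the surface transporter, stood at 4.03, 4.83 and 4.03 CPM in WT + AAV-GFP and at 3.47, 3.31 and 3.64 in WT + AAV-PRDM16. KO + AAV-GFP had 5.20, 5.29 and 5.72 CPM, and KO + AAV-PRDM16 4.71, 4.49 and 5.996. Within each virus the KO libraries were all above the WT libraries, and over both viruses the ranges overlapped, the highest WT value being 4.83 and the lowest KO value 4.49. The log2 fold change was 0.33 (FDR 0.543) under AAV-GFP, 0.54 (FDR 0.164) under AAV-PRDM16 and 0.44 (SE 0.11, 1.35-fold, FDR 0.0578) on average. An antisense gene, Gm12868, overlaps Slc2a1. The insulin-responsive Slc2a4 showed no such difference: 157.9 to 247.2 CPM in WT, 144.2 to 254.8 in KO, and a log2 fold change of 0.08 (95% confidence interval -0.26 to 0.41, FDR 0.847).

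The 2 hexokinases were compared next. Hk1 was at 50.9, 41.9 and 36.9 CPM in WT + AAV-GFP and at 63.1, 62.9 and 59.2 in KO + AAV-GFP. With AAV-PRDM16, WT had 59.6, 70.5 and 44.9 CPM, and KO 60.2, 52.8 and 49.5. The genotypes did not overlap under AAV-GFP (log2 fold change 0.51, SE 0.16, FDR 0.354) and overlapped under AAV-PRDM16 (-0.11, SE 0.16, FDR 0.824). The test of the difference between these effects gave -0.62 (SE 0.22, unadjusted p = 0.0169, FDR 1.0) and did not pass the adjustment over all genes. Hk2, the form that insulin is known to induce, ranged over 222.7 to 434.4 CPM in WT and 265.9 to 448.4 in KO, with an averaged log2 fold change of 0.18 (95% confidence interval -0.20 to 0.55, FDR 0.640). Hk1 overlaps the antisense gene Hk1os.

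Of the glycolytic enzymes, Pfkl had 486.2 to 687.2 CPM in WT and 405.9 to 598.2 in KO. Its averaged log2 fold change was -0.24 (SE 0.10, FDR 0.253). Under AAV-PRDM16 its WT libraries (601.0 to 687.2 CPM) were all above its KO libraries (458.4 to 537.9), at -0.41 (FDR 0.257), and under AAV-GFP they overlapped, at -0.06 (FDR 0.955). Pkm was at 1439 to 2004 CPM in WT and 908.9 to 1962 in KO, the lowest value being that of KO + AAV-GFP replicate 3. The Pkm difference averaged -0.16 (95% confidence interval -0.55 to 0.24, FDR 0.703). A gene model of uncertain status in the annotation, Gm49759, overlaps Pkm on its own strand.

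The kinases that switch off pyruvate dehydrogenase were both lower in mean in KO. Pdk4, known to rise with fasting and fatty acid use, was at 3032, 2071 and 2424 CPM in WT + AAV-GFP and at 2047, 2046 and 1738 in KO + AAV-GFP. In WT + AAV-PRDM16 it was at 2594, 2477 and 2762 CPM, and in KO + AAV-PRDM16 at 2289, 1980 and 1499. Within each virus no KO library reached the lowest WT library, yet KO + AAV-PRDM16 replicate 1 lay above WT + AAV-GFP replicate 2, and the averaged log2 fold change of -0.41 (SE 0.12, 0.755-fold) had an FDR of 0.0951. Pdk2 ranged over 241.4 to 297.3 CPM in WT and 193.2 to 255.7 in KO, at -0.21 (SE 0.085, FDR 0.197).

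**Figure D3:**
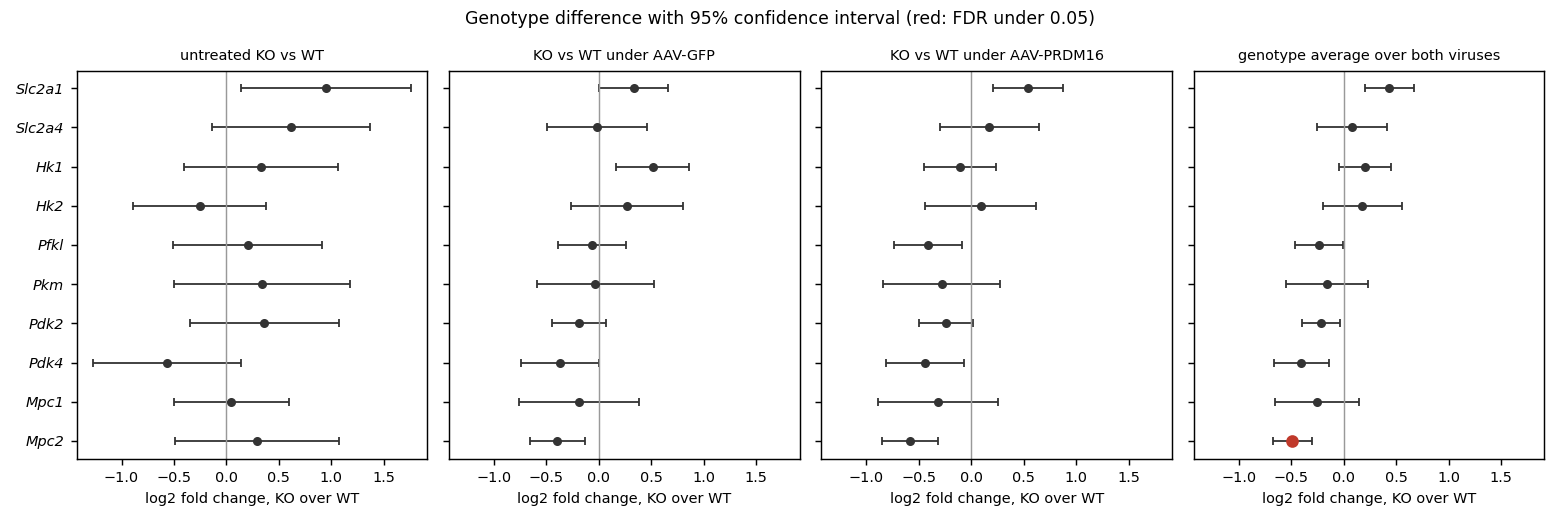
Log2 fold change of KO over WT (points) with its 95% confidence interval (bars) for the 10 genes in the untreated cohort, under each virus, and averaged over both viruses. Mpc2 at -0.49 in the average is the 1 point past an FDR of 0.05, drawn in red.

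In the genotype comparisons within 1 virus, edgeR called none of the 10 genes at an FDR of 0.05, while it called 0.0529% of all genes under AAV-GFP and 0.0476% under AAV-PRDM16. At an unadjusted p under 0.05 there were 3 of 10 under AAV-GFP (Hk1, Mpc2, Slc2a1), beside 9.18% of all genes, and 4 of 10 under AAV-PRDM16 (Mpc2, Slc2a1, Pfkl, Pdk4), beside 13.7%. Libraries of the groups did not overlap for 4 of 10 under AAV-GFP, beside 13.4% of all genes, and for 5 of 10 under AAV-PRDM16, beside 22.8%. DESeq2 called 0 of the 10 under AAV-GFP, beside 1.29% of all genes, and 2 under AAV-PRDM16, Mpc2 (FDR 0.00152) and Slc2a1 (FDR 0.0283), beside 3.28%, while limma-voom called 0 of the 10 under either virus, beside 0.0847% and 0.0423%.

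Some markers of other cells differed between the same AAV groups. In the average over both viruses, 18.3% of all genes had an unadjusted p under 0.05 and 2.18% an FDR under 0.05. Of 10 macrophage markers, 9 were higher in KO at an unadjusted p under 0.05 in the average over both viruses and 4 of them at an FDR of 0.05; their sum was 47.0 to 139.7 CPM in WT and 88.9 to 406.8 in KO. Of 16 brown adipocyte markers, 8 were lower at an unadjusted p under 0.05 and 3 at an FDR of 0.05, with sums of 8834 to 13450 CPM in WT and 9281 to 10520 in KO. Of 10 endothelial markers, 6 were higher in KO at an unadjusted p under 0.05 and 0 at an FDR of 0.05, with sums of 496.9 to 642.6 CPM in WT and 473.1 to 770.3 in KO. White adipocyte markers, of which 8 of 10 were tested, had 2 higher at an unadjusted p under 0.05 and 1 at an FDR of 0.05, with sums of 45.0 to 91.4 CPM in WT and 79.8 to 279.1 in KO. They had no common direction, since 4 of the 8 were higher and 4 lower in KO. Nerve and Schwann cell markers had 3 of 7 lower at an unadjusted p under 0.05 and 0 at an FDR of 0.05, with sums of 98.05 to 137.3 CPM in WT and 97.6 to 139.6 in KO. The part of any of these lists in the differences of Mpc2, Slc2a1 and Pdk4 was not tested. The sums of the 8 erythroid markers, 178.1 to 369.9 CPM in WT and 226.2 to 355.9 in KO, and of the 20 skeletal muscle markers overlapped. All 16 skeletal muscle markers tested were higher in KO in the average, 0 at an unadjusted p under 0.05. Under AAV-GFP 15 were higher, 8 at that p. There KO replicate 1 had a sum of 161.5 CPM, and KO replicates 2 and 3 had 35.6 and 35.3. Under AAV-PRDM16 15 were lower, 0 at that p. The part of muscle in the member differences was not tested. The 10 T and B cell markers summed to 1.29 to 17.6 CPM in WT and 1.199 to 26.5 in KO, the highest in KO + AAV-GFP replicate 3. That library also had the highest macrophage sum and the lowest Mpc1, Pkm, Slc2a4, Pfkl (405.9 CPM) and Pdk2 (193.2 CPM) of the cohort.

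The virus itself left the 10 transcripts without a call. Prdm16 was at 23.9 to 40.2 CPM in the 6 libraries with AAV-GFP and at 45.9 to 127.8 in the 6 with AAV-PRDM16, all above those with AAV-GFP. The lowest of the latter, 45.9 CPM, was WT + AAV-PRDM16 replicate 3, close to the AAV-GFP range. Replicates 1 and 2 of that group had 121.9 and 118.9 CPM. Averaged over both genotypes, edgeR called 0 of the 10 genes at an FDR of 0.05, beside 0.037% of all genes, 0 of 10 at an unadjusted p under 0.05, beside 9.09%, and 0 of 10 without overlap, beside 0.561%. DESeq2 called 0 of the 10 there too, beside 3.19% of all genes, and limma-voom 0, beside 0.0%. The differences averaged over both genotypes ran from -0.20 for Slc2a1 (95% confidence interval -0.43 to 0.03) to 0.17 for Mpc2 (-0.02 to 0.35), and all their 95% intervals lay within -0.49 and 0.37 on the log2 scale.

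Within WT mice, AAV-PRDM16 was set against AAV-GFP with 3 libraries each. No gene of the 10 and 0.0% of all genes passed an FDR of 0.05 in edgeR. Hk1, at a log2 fold change of 0.43 (FDR 0.558), was the 1 of 10 at an unadjusted p under 0.05, beside 7.29% of all genes, and its libraries overlapped. The overlap came from WT + AAV-PRDM16 replicate 3 (44.9 CPM of Hk1), the library with the least Prdm16 under AAV-PRDM16. The part of the Prdm16 level in this value was not tested. Slc2a1 (-0.31, FDR 0.716) and Pfkl (0.23, FDR 0.813) were the 2 of 10 without overlap, beside 14.2%. Within KO mice, edgeR again called 0 of the 10 at an FDR of 0.05 and 0.0% of all genes. There, 0 of 10 had an unadjusted p under 0.05, beside 6.41% of all genes, and 0 of 10 did not overlap, beside 9.43%. Slc2a4 in KO was at 254.8, 251.3 and 144.2 CPM with AAV-GFP and at 168.5, 228.2 and 254.0 with AAV-PRDM16, means that differed by 0.00 on the log2 scale (95% confidence interval -0.47 to 0.48). DESeq2 also called 0 of the 10 in each genotype, beside 0.804% of all genes in WT and 1.41% in KO, and limma-voom 0, beside 0.0% in each.

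KO mice given AAV-PRDM16 were also compared with WT mice given AAV-GFP, the pair that asks how far the treated knockout was from the control. edgeR called 0 of the 10 genes and 0.00529% of all genes at an FDR of 0.05, DESeq2 0 of the 10 beside 0.831%, and limma-voom 0 beside 0.00529%. Mpc2 (-0.32, SE 0.12, FDR 0.553) and Pdk4 (-0.38, SE 0.17, FDR 0.618) were the 2 of 10 at an unadjusted p under 0.05, beside 7.93%. Mpc2 was the 1 of 10 whose libraries did not overlap, beside 13.2%. This comparison shares its libraries with those above and is not independent of them. For the interaction of genotype and virus, 0 of the 10 genes and 0.0% of all genes were called by edgeR. DESeq2 called 0 of the 10 beside 0.00529% of all genes, and limma-voom 0 beside 0.0%. Hk1 was the 1 of 10 at an unadjusted p under 0.05 in edgeR, beside 3.19%.

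In the untreated cohort, the 5 libraries labelled KO were compared with the 5 WT libraries. edgeR, DESeq2 and limma-voom called 0 of the 10 genes at an FDR of 0.05, and each called 0.0% of all genes. Slc2a1 was the 1 of 10 at an unadjusted p under 0.05, beside 15.9% of all genes, 0 of 10 did not overlap, beside 1.4%, and 0 of 10 met a looser rule, a change of 2-fold or more with an FDR no higher than 0.5, beside 10.8%. The median log2 fold change of the 10 was 0.31, beside 0.04 over all genes tested.

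Slc2a1 in the WT libraries was at 2.54, 5.16, 9.28, 10.3 and 4.68 CPM. In those labelled KO it was at 19.4, 11.4, 8.91, 9.39 and 12.9 CPM. The highest value was in KO replicate 1, the library whose Cpeb2 lay in the WT range, and 2 WT libraries lay within the range of the libraries labelled KO. The log2 fold change was 0.95 (SE 0.37, unadjusted p = 0.0246, FDR 0.305), 0.73 without KO replicate 1 (FDR 0.267), 0.65 without WT replicates 1 and 2 (FDR 0.867) and 0.68 without the 4 libraries above 1000 CPM of muscle markers (FDR 0.506).

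Mpc2 in the untreated WT libraries was at 145.5, 165.5, 278.5, 236.9 and 384.3 CPM. In those labelled KO it was at 206.0, 136.4, 411.6, 336.3 and 389.3 CPM. The difference of 0.29 (SE 0.36, 95% confidence interval -0.49 to 1.07, FDR 0.664) had the opposite sign to that of the AAV cohort, and the difference between the cohorts was not tested. That sign was not settled: over 20 settings of the analysis the untreated difference ran from -0.14 to 0.67. WT replicates 1 and 2, which had the most Y-linked and the least erythroid transcripts of the untreated cohort, held the lowest Mpc2 of their group.

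Pdk4 in the untreated WT libraries was at 2726, 2570, 1853, 1627 and 1961 CPM. In those labelled KO it was at 2623, 1037, 1331, 1392 and 866.2 CPM. All libraries labelled KO other than replicate 1 were below every WT library, and replicate 1 was above 4 of the 5. The log2 fold change was -0.57 (SE 0.33, FDR 0.370), -0.89 without KO replicate 1 (FDR 0.160) and -0.28 without WT replicates 1 and 2 (FDR 0.870). Slc2a4 was at 184.6 to 290.4 CPM in WT and fell into 2 ranges in the libraries labelled KO: 166.0 and 172.5 in replicates 1 and 2, and 311.5 to 509.6 in replicates 3, 4 and 5 (log2 fold change 0.61, FDR 0.363). KO replicates 1 and 2 were also the libraries with the most muscle markers, while replicate 5 had 1437 CPM of them and 509.6 of Slc2a4. The part of muscle or of blood in these values was not tested. The other 6 genes had log2 fold changes from -0.25 for Hk2 to 0.36 for Pdk2, with FDRs from 0.541 for Pdk2 to 0.931 for Mpc1.

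Ratios of 2 members counted in the same library do not depend on how libraries were scaled. Slc2a1 counts were between 0.0125 and 0.117 of Slc2a4 counts over the 22 libraries, Hk2 counts 3.81 to 10.5 times Hk1 counts, Pdk4 counts 1.54 to 12.4 times Pdk2 counts and Mpc1 counts 0.995 to 3.46 times Mpc2 counts. Exact two-sided permutation tests gave no adjusted p under 0.05 in 12 tests, the smallest being 0.286. The Hk2/Hk1 log2 ratio was 3.04 ± 0.28 (SD, n = 5) in untreated WT and 2.42 ± 0.40 in the libraries labelled KO, a difference of -0.61 (exact permutation p = 0.0317, adjusted p = 0.286). The Pdk4/Pdk2 log2 ratio was 3.08 ± 0.30 in untreated WT and 2.17 ± 1.02 (SD, n = 5) in the libraries labelled KO, a difference of -0.91 (exact permutation p = 0.0714, adjusted p = 0.286), with the lowest value, 0.62, in KO replicate 5. The Slc2a1/Slc2a4 log2 ratio was 0.38 higher in KO than in WT over the AAV cohort, with labels exchanged within each virus (exact permutation p = 0.05, adjusted p = 0.286). The Mpc1/Mpc2 log2 ratio differed by 0.19 between the AAV genotypes (exact permutation p = 0.380, adjusted p = 0.560), so unequal change of the carrier subunits was not detectable here. The smallest p these designs allow is 0.00794 for untreated mice and 0.005 for those given virus.

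**Figure D4:**
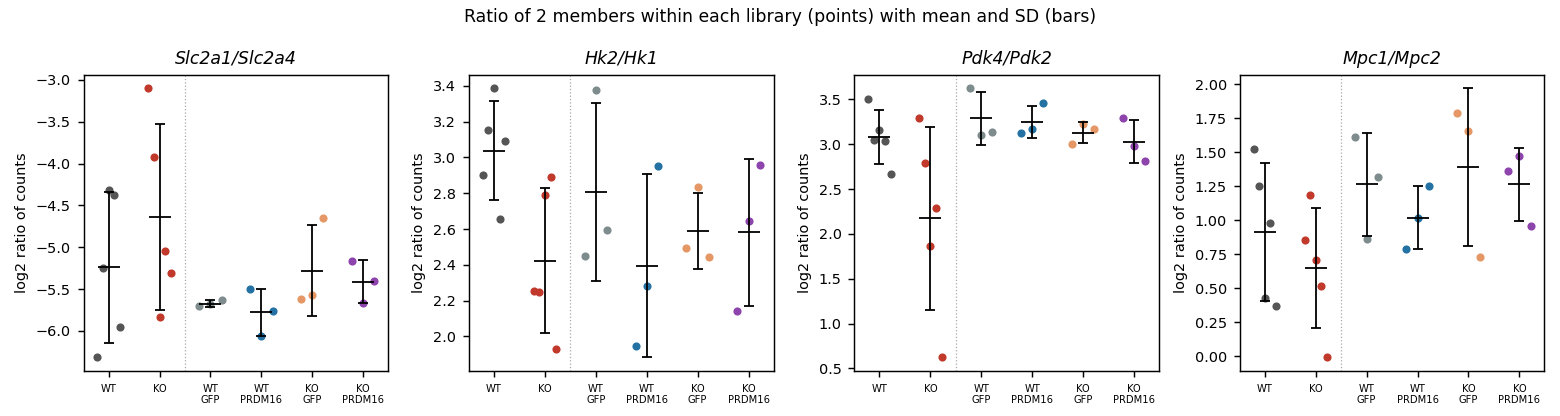
Log2 ratio of the counts of 2 members within each library (points), by group, with mean and SD (bars), the untreated cohort left of the dotted line. Pdk4/Pdk2 reached its lowest value, 0.62, in untreated KO replicate 5, and the Hk2/Hk1 groups overlap in both cohorts.

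The rest of the pathway was read from 4 lists of 87 further genes, of which 82 were tested in each cohort. Averaged over both viruses, 1 of the 82 passed an FDR of 0.05, beside 2.18% of all genes tested. This was Ldhb, a lactate dehydrogenase subunit, which fell by 0.31 on the log2 scale (SE 0.074, FDR 0.0494, just under the threshold). It was at 441 ± 11.7 and 428 ± 35.4 CPM (SD, n = 3) in WT with AAV-GFP and AAV-PRDM16 and at 337 ± 16.9 and 362 ± 38.0 in KO, and the ranges over both viruses overlapped. At an unadjusted p under 0.05, 0 of the 82 were higher in KO and 10 were lower, 12.2% in all beside 18.3% of all genes. Pdp2, a phosphatase that reactivates pyruvate dehydrogenase, was at -0.38 (SE 0.094, FDR 0.0585), with 78.4 to 113.5 CPM in WT and 64.1 to 78.2 in KO. It was the 1 of the 82 without overlap, beside 2.71% of all genes. With the smallest p among the higher were Arrdc4, an arrestin-domain protein that removes glucose transporters from the surface (0.47, FDR 0.340), and Slc2a3, the GLUT3 transporter (0.50, FDR 0.348).

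By list, the 18 glycolysis genes tested had 3 lower and 0 higher at an unadjusted p under 0.05 in that average, with a median log2 fold change of -0.05. The 28 other transporters and uptake regulators had 4 lower and 0 higher (median 0.04), the 22 genes of pyruvate dehydrogenase and pyruvate handling 2 lower and 0 higher (median -0.07), and the 14 glycogen genes 1 lower and 0 higher (median 0.01). All genes tested had a median of 0.01. At the same p under AAV-GFP, 2 of the 82 were higher and 3 lower, 6.1% in all beside 9.18% of all genes, and Ldhb had the smallest p (-0.39, FDR 0.295). Under AAV-PRDM16 0 were higher and 11 lower, 13.4% beside 13.7% of all genes. The smallest p were those of Pfkfb3, which makes the activator of phosphofructokinase (-0.70, FDR 0.144), and the triose isomerase Tpi1 (-0.33, FDR 0.145). Between the viruses, 1 of the 82 had an unadjusted p under 0.05 on average, 1.22% beside 9.09% of all genes. This was Hk3, a hexokinase of blood cells (-1.72, FDR 0.243), at a low level of 0.105 to 4.26 CPM. Macrophage and T and B cell markers were lower with AAV-PRDM16 as well, 9 of 10 and 7 of 10 at an unadjusted p under 0.05. The part of these cells in the Hk3 difference was not tested.

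In the untreated cohort, 7 of the 82 were higher and 14 lower in libraries labelled KO at an unadjusted p under 0.05, 25.6% in all beside 15.9% of all genes. At an FDR of 0.05 edgeR called 0 of the 82, beside 0.0% of all genes. Counts at an unadjusted p under 0.05 depended on the libraries and the model. Over all genes, 892 were higher and 1944 lower, against 313 and 121 without WT replicates 1 and 2. With a covariate for Y-linked transcripts, which more libraries labelled KO than WT lacked, there were 563 and 678. Without KO replicate 5 there were 326 and 1113. Gapdh, the glycolytic dehydrogenase, was at 41.6 to 256.6 CPM in WT and 197.1 to 796.9 in libraries labelled KO (1.48, FDR 0.305). Its counts can be shared with near-identical pseudogenes, so the level is uncertain. Aldoc, an aldolase, was at 0.490 to 1.31 and 1.22 to 8.99 CPM (1.74, FDR 0.305). Pdpr, a regulator of the pyruvate dehydrogenase phosphatase, was at 8.38 to 107.3 CPM in WT and 6.29 to 18.4 in libraries labelled KO (-2.41, FDR 0.305), while all 12 AAV libraries had 69.0 to 96.6. The untreated WT libraries were themselves far apart in Pdpr (50.4 ± 50.4 CPM, SD, n = 5), and the lowest lay in the range of those labelled KO. Slc16a7, a monocarboxylate transporter, was at 10.9 to 32.3 and 5.96 to 12.8 CPM (-1.19, FDR 0.305).

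Genes whose levels followed a member across libraries were ranked by the smaller of 2 correlations of log2 CPM, over the 10 untreated and the 12 AAV libraries, among 17198 genes. This is a description, since libraries share depth, cell makeup and genotype. Pfkl was most like the glycolytic mutase Pgam1 (r = 0.946 and 0.921) and Acsf3 (0.921 and 0.924). Slc2a4 was most like Ldha, a lactate dehydrogenase subunit (0.955 and 0.816). Slc2a1 was most like Ucp2, a mitochondrial carrier (0.872 and 0.903), and Qsox1 (0.925 and 0.849). Mpc2 was most like Pcbd2 (0.966 and 0.953) and Pepd (0.928 and 0.927), and Pdk2 most like Ascc1 (0.950 and 0.923) and the peroxisomal membrane gene Pxmp4 (0.944 and 0.920). Pdk4 was most like Golga4 (0.872 and 0.866) and Tex2 (0.943 and 0.851). Hk1 was most like Ntn1 (0.832 and 0.745) and Ncan (0.798 and 0.711), and Hk2 like Dcun1d3 (0.717 and 0.751) and Gm17067 (0.857 and 0.711). Pkm was most like Gm6560 (0.980 and 0.985) and Gm2606 (0.976 and 0.977), and Mpc1 like Gm47451 (0.925 and 0.874) and Tlcd1 (0.833 and 0.874), where the numbered gene models may share reads with their partners. Among the members, Pkm and Pfkl had r = 0.936 and 0.787, and Mpc1 and Mpc2 0.656 and 0.437.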

How the data were processed

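mRNA libraries of BAT from 22 mice were sequenced by the authors, and a table of raw counts per Ensembl gene was deposited for each cohort. The submitters' processing notes name bcl2fastq 2.20, Trimmomatic 0.36, HISAT2 and GRCm38.p6. The counting tool, annotation, strand setting and duplicate handling are not given in the sources used here, so overlapping and near-identical genes are uncertain. GENCODE M21 (GRCm38) named 55227 of the 55487 identifiers.

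From the deposited counts, genes kept by filterByExpr were fitted with edgeR 4.0.16 (R 4.3.3): TMM scaling, quasi-likelihood tests, two-sided, Benjamini-Hochberg adjustment over all genes tested, FDR 0.05. The 10 untreated libraries were fitted alone. All 12 AAV libraries shared a fit, from which pairs of groups, their averages and the interaction were tested. CPM were TMM-scaled. Log2 ratios (0.5 added to each count) were tested by exact permutation. The fits were tested on simulated data. P-values measure the spread between mice. For the median gene, every pair of libraries of a group differed by more than counting noise, and precision there was set by that spread rather than by depth. This need not hold for Slc2a1, the member of lowest level, which had 297, 299 and 378 counts in WT + AAV-PRDM16.

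DESeq2 1.42.0, limma-voom (limma 3.58.1), RLE scaling, no filter, the replicate number as a block, a Y-linked covariate, other transcript lengths and omitted libraries were alternatives. 3 of them (libraries without Y-linked transcripts, libraries without muscle markers over 1000 CPM, length of the longest protein-coding transcript) were chosen after seeing the data. Members and gene lists were chosen with earlier results of these data known. The text names all members, each pathway gene at FDR 0.05 in any comparison, up to 2 higher and 2 lower pathway genes of smallest p in a comparison, and for each member the 2 genes most like it, except that 1 of these genes is not reported here.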

Additional observations from a re-analysis of the deposited data

Results flagged for a closer look

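Slc2a4 was at 290 CPM in untreated WT replicate 5, set apart from the other 4 libraries of its group, which had 184.6 to 214.4 CPM. Its gap to the nearest library was 0.719 of the range of the group, above the 95% limit of 0.710 for 5 samples. In all, 28 sets of 5 libraries were examined and 1 was flagged, and chance flags about 1 in 20 such groups.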

How the results depend on the processing

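The count of members at an FDR of 0.05 was 1 averaged over both viruses and 0 in the 8 other comparisons. With DESeq2 it was 3 in the average (Mpc2, Slc2a1 at FDR 0.00309 and Pdk4 at FDR 0.0193) and 2 for KO against WT under AAV-PRDM16. Over all genes DESeq2 called 834 higher and 750 lower in the average, against 200 and 212 by edgeR, which called 127 and 123 without the low-count filter. DESeq2 against edgeR gave 125 and 118 against 1 and 9 under AAV-GFP, 306 and 313 against 8 and 1 under AAV-PRDM16, 18 and 134 against 0 and 0 for the virus in WT, 19 and 247 against 0 and 0 in KO, 74 and 83 against 0 and 1 for KO + AAV-PRDM16 over WT + AAV-GFP, 41 and 561 against 0 and 7 for the virus average, and 1 and 0 against 0 and 0 for the interaction. The virus average was 2 and 74 with RLE scaling, 1 and 143 without the filter, 0 and 2 with the replicate block, 0 and 0 by limma-voom, and from 0 and 0 (without any 1 of 6 libraries) to 3 and 349 (without WT + AAV-GFP replicate 1), with 7 and 204 without KO + AAV-GFP replicate 1. Without single libraries the genotype average ran from 53 and 36 (without KO + AAV-PRDM16 replicate 1) to 362 and 228 (without KO + AAV-GFP replicate 1). In the untreated cohort, 892 genes were higher and 1944 lower at an unadjusted p under 0.05, 313 and 121 without WT replicates 1 and 2, and 1924 genes changed 2-fold or more with an FDR up to 0.5, against 0 without those libraries. At that p there were 563 and 678 with the Y-linked covariate, and 326 and 1113 without KO replicate 5. The 2-fold rule gave 0 genes in each of these settings. Leaving out each AAV library in turn gave 0 to 1 members in the average and 0 in every other comparison; the Mpc2 log2 fold change stayed between -0.54 and -0.43. The cause of the DESeq2 difference was not tested.

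With the replicate number as a block (replicate block), 1 member was called in the average, Mpc2 at -0.49 (FDR 0.0171), beside 179 genes higher and 165 lower of 18899 tested. In the remaining comparisons 0 members were called. The most genes called there were 4 higher and 1 lower, for KO against WT under AAV-PRDM16. Deviations of same-numbered libraries correlated at -0.222 to 0.122 in 5 untreated and -0.103 to 0.185 in 18 AAV pairs, so the numbers do not pair the mice. Of 1600 alternative fold changes of members, 1594 kept their side of the threshold. Most of these were uncalled at the start and stayed so, and the number says little about the 1 call. Among the rest, 4 gained a call and 2 lost it, both for Mpc2 in the genotype average (FDR 0.0655 and 0.0582). A direction was read only where the original value was called or exceeded its SE, and none reversed. What more reads or more mice would change was not tested.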
